A study of Homo sapiens with 4 samples.

Results

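The 10 genes described here encode the enzymes that supply acetyl-CoA and NADPH for lipogenesis (ACLY, ACSS2, ME1), build palmitate (ACACA, FASN), elongate fatty acids (ELOVL5, ELOVL6) and desaturate them (SCD, FADS1, FADS2). They are 10 of the 60612 genes in the deposited table. They were chosen by the function of their products and with the fold changes of this same comparison already known, so their calls are given as a description and nothing is supported with them. The study sequenced RNA from 4 libraries of an established line, NCI-N87, derived from a human gastric carcinoma. In 2 libraries the cells had received the puromycin-selectable vector PLVX-IRES-Puro carrying ZSCAN18, which encodes a SCAN-type zinc finger protein; in the other 2 libraries the same vector held no insert. Cells of both groups were transfected for 24 hours, and the vector was present for 5 days before RNA extraction, with puromycin for 4 days, so that selection and vector backbone are shared by the groups. The series asks how ZSCAN18 bears on proliferation. The model is a single cell line with forced expression, and the labels do not say whether the libraries came from separate cultures, so the p-values cover the spread among these libraries alone, and that spread may be technical.

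De novo fatty acid synthesis starts from citrate that leaves the mitochondria. ATP citrate lyase splits it into acetyl-CoA in the cytosol, acetyl-CoA carboxylase turns part of it into malonyl-CoA, and fatty acid synthase joins these units into palmitate with electrons from NADPH. Elongases and desaturases in the endoplasmic reticulum then set chain length and unsaturation. Most of these genes are known targets of the sterol regulatory element-binding proteins, the membrane-bound transcription factors encoded by SREBF1 and SREBF2. Tumour cells of many tissues are known to make much of their fatty acid in this way.

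FPKM divide the fragments of a gene by its transcript length and by the mapped fragments of the library; no fragment counts were used. A rough depth, which assumes that the most common low value of single-exon genes stands for 1 fragment, was 23100000 and 23400000 fragments in the ZSCAN18 libraries, against 23800000 and 24600000 fragments in the empty vector libraries. ZSCAN18 itself was at 116 and 112 FPKM in the ZSCAN18 libraries, against 0.108 and 0.144 FPKM in the empty vector libraries. The ZSCAN18 columns carry a name that no sample title holds, so they were assigned by elimination. All 5 epithelial markers (EPCAM, CDH1, KRT8, KRT18, KRT19) stood at 34.9 FPKM or more in every library. Their summed level was 3241 and 3393 FPKM with ZSCAN18, against 3926 and 3660 FPKM with the empty vector. KRT18 alone among these 5 passed in the limma fit described below, with a log2 fold change of -0.39 (adjusted p 0.0408). KRT8 and EPCAM were at -0.43 and -0.10, CDH1 and KRT19 at 0.32 and 0.01. Of other tissues that make fat, 0 of 3 adipocyte markers (ADIPOQ, PLIN1, LEP) and 0 of 3 hepatocyte markers (ALB, APOA1, TTR) reached 1 FPKM in any library, and ADIPOQ and LEP were listed at the floor in all of them. The summed adipocyte level was 0.0345 and 0.0115 FPKM with ZSCAN18, against 0.0222 and 3.00e-04 FPKM with the empty vector, and the summed hepatocyte level was 1.32 and 1.31 FPKM with ZSCAN18, against 0.112 and 0.964 FPKM with the empty vector. ERBB2, which is known to be amplified in this line, was at 454 and 472 FPKM with ZSCAN18, against 525 and 549 FPKM with the empty vector. The 4 mesenchymal markers (VIM, COL1A1, COL1A2, PDGFRB), of which 2 reached 1 FPKM in any library, summed to 4.94 and 4.27 FPKM with ZSCAN18, against 3.78 and 2.64 FPKM with the empty vector. The 3 blood markers (PTPRC, CD3E, CD68), of which only CD68 reached 1 FPKM, summed to 2.31 and 2.73 FPKM with ZSCAN18, against 4.24 and 4.72 FPKM with the empty vector. The part of these shifts in the results was not tested, and in a bulk library more RNA per cell and more cells with that RNA cannot be told apart.

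With ZSCAN18, 6 genes were higher: those of acetyl-CoA and NADPH supply (ACLY, ACSS2, ME1), those of palmitate synthesis (ACACA, FASN) and the desaturase gene SCD. ELOVL6 did not pass the test, and the genes of the polyunsaturated branch (ELOVL5, FADS1, FADS2) were near or below 1 FPKM in both groups. SCD stood 3.32-fold and ACSS2 3.05-fold above the empty vector in mean FPKM, ME1, FASN, ACACA and ACLY between 1.43-fold and 1.64-fold, and ELOVL6 1.11-fold. Of the 10 genes 8 passed the filter of 1 FPKM in at least 2 libraries. In limma, fitted to log2(FPKM + 1) across all 11822 genes that passed, 6 of the 8 were past an adjusted p of 0.05 and higher with ZSCAN18. Among all tested genes 0.795% were called higher and 0.973% lower, or 94 and 115 genes; with median-of-ratios scaling these numbers were 92 and 189. In limma 0 of the 8 were called lower, and 6 of the 8 had an unadjusted p under 0.05, as had 26.8% of all tested genes (3174 of 11822). The ZSCAN18 libraries lay above both empty vector libraries without overlap in 7 of the 8, as they did in 35.8% of all tested genes. The median log2 fold change was 0.59 over the 8 genes and 0.04 over all tested genes.

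Without any 1 of the 4 libraries 0 of the 8 genes passed in limma, while 6 of the 8 had an unadjusted p under 0.05 each time, as had 17.8 to 20.2% of all tested genes. With variances moderated without the intensity trend, only SCD and ACSS2 passed, and without the filter on low values, with 30288 genes tested, 0 of the 10 did. With 2 libraries a group, the smallest p of an exact permutation test is 0.333.

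**Figure D1:**
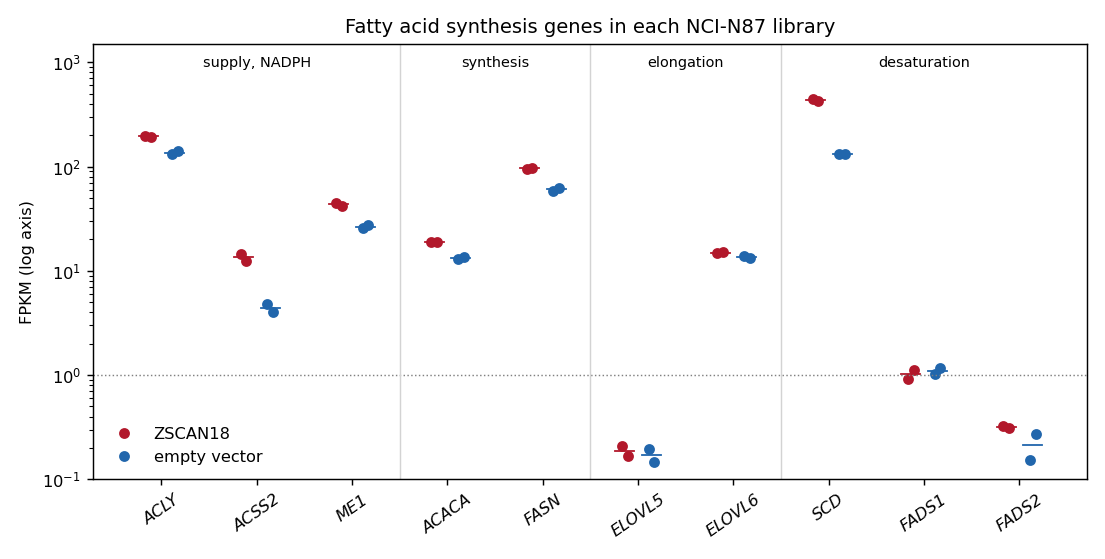
FPKM of the 10 genes in each library on a log axis, with ZSCAN18 libraries in red on the left and empty vector libraries in blue on the right of each gene; points are libraries, short lines are group means and the dotted line marks 1 FPKM. SCD shows the widest gap, at 446 and 426 FPKM with ZSCAN18, against 132 and 131 FPKM with the empty vector, while ELOVL5 and FADS2 lie below 1 FPKM in all 4 libraries.

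Stretches before a RefSeq start are shown for 4 of these genes. SCD and ACSS2 were the members with the largest fold changes. ACLY was the most abundant member with the empty vector, and ME1 had a match for the antioxidant motif. The stretches come from RefSeq (GRCh38.p14), start 250 bases before a RefSeq start of the gene and stop before the first exon base in GENCODE 29. SCD is chr10:100346983-100347123, plus strand; ACSS2 is chr20:34874739-34874941, plus strand; ACLY is chr17:41919023-41919272, minus strand; ME1 is chr6:83431072-83431301, minus strand. ACSS2 and ACLY have more than 1 RefSeq start, and the first listed is shown. Both of these stretches lie inside the deposited gene spans given below, so they are upstream of that start and not of the gene. Capitals mark matches, on either strand, to the CCAAT box CCAAT, bound by NF-Y, the GC box GGGCGG, bound by SP1, and in ME1 the antioxidant response element core TGACNNNGC.
SCD: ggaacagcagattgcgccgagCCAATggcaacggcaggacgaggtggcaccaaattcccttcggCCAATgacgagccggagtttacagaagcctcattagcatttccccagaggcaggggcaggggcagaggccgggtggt
ACSS2: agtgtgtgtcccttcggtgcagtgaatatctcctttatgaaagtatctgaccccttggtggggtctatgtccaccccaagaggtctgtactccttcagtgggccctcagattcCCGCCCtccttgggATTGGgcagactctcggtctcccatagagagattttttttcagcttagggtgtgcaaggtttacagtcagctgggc
ACLY: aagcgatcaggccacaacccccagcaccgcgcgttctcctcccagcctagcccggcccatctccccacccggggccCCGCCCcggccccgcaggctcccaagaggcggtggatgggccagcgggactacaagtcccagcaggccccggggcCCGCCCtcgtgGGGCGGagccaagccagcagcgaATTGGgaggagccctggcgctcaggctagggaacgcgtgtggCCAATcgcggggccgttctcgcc
ME1: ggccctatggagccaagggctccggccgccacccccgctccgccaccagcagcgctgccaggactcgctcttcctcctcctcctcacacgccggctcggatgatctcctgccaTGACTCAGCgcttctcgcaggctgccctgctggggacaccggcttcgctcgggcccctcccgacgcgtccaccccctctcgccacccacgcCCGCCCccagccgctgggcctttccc

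In the table of 35116 promoters, 14 entries belonged to 9 of the 10 genes, and FASN had no entry. A CCAAT box lay in 5 of these 9 (ACLY, ACSS2, ACACA, ELOVL5, SCD), as in 32.0% of all promoters. A GC box lay in 8 of the 9, as in 42.6%. These counts refer to the 250 bases before a RefSeq start. SCD holds 2 CCAAT boxes, at 229 to 225 and 186 to 182 bases before its RefSeq start. ACLY, ELOVL5 and the third ACACA entry also hold 2. In the first ACSS2 entry a GC box and a CCAAT box lie close to each other, at 137 to 132 and 123 to 119 bases. A closer pair lies in the second ACACA entry, at 236 to 231 and 226 to 222 bases. The core TGACNNNGC matched in ME1 alone, at 137 to 129 bases, as in 10.9% of all promoters. The E-box CACGTG matched in ELOVL5 alone (6.34% of all promoters), and the SRE-like word TCACNCCAC in 0 of the 9 (0.883% of all promoters). The absence of this exact word in these windows does not show that the genes lack sites for the sterol regulatory proteins. No matches of different motifs overlapped in the sequences shown. All 250 bases of each entry were searched, also those past the first exon base, before which the shown sequences stop. Past that base lie the E-box and the CCAAT boxes of ELOVL5, the GC box of ELOVL6 and the GC boxes of SCD. The SCD stretch shown thus holds no GC box. Also past it lie the GC boxes of the second ACSS2 entry and, in the second ACLY entry, the GC box at 59 to 54 bases. A gene with several starts had more windows in which to match, and no comparison with the background was tested.

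ACLY (ENSG00000131473, chromosome 17, 41866917 to 41930542, minus strand, deposited coordinates taken as GRCh38) encodes ATP citrate lyase, the main source of cytosolic acetyl-CoA. It was at 198 and 191 FPKM in the ZSCAN18 libraries, against 132 and 140 FPKM in the empty vector libraries. Both ZSCAN18 libraries were above both others, by a margin far wider than the gap inside either group. The log2 fold change was 0.52 (SE 0.0522, 95% interval 0.37 to 0.66), with an adjusted p of 0.0409 in limma. ACLY was at the 98.1 percentile of level among tested genes with the empty vector, and its rise of 58.7 FPKM was the second in size among the 10 genes, after that of SCD.

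ACSS2 (ENSG00000131069, chromosome 20, 34872146 to 34927962, plus strand) makes acetyl-CoA from acetate in the cytosol and nucleus. It was at 14.4 and 12.5 FPKM in the ZSCAN18 libraries, against 4.79 and 4.03 FPKM in the empty vector libraries. The groups were well apart, although the libraries of each group differed by more than those of most tested members, by 1.16-fold with ZSCAN18 and 1.19-fold with the empty vector. The log2 fold change was 1.42 (SE 0.114, 95% interval 1.10 to 1.73; adjusted p in limma 0.0361), and on the scale of plain mean FPKM the gene was 3.05-fold higher. That fold change ranked 30 among the 11822 tested genes. Relative to ACLY in the same library, ACSS2 was at 0.0726 and 0.0652 with ZSCAN18, against 0.0362 and 0.0288 with the empty vector. ACSS2 mRNA was thus higher relative to ACLY mRNA with ZSCAN18, while remaining the lower of both in every library. Other genes of the acetate and citrate routes are not part of this ratio. GGT7, on the opposite strand, overlaps ACSS2 by 711 bases at a mean of 1.53 FPKM with ZSCAN18 and 1.41 FPKM with the empty vector. The sources used here do not say whether counting used strand.

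ME1 (ENSG00000065833, chromosome 6, 83210402 to 83431051, minus strand), the cytosolic malic enzyme, turns malate into pyruvate and yields NADPH. It was at 45.2 and 41.5 FPKM in the ZSCAN18 libraries, against 25.8 and 27.3 FPKM in the empty vector libraries. The groups did not overlap. Its log2 fold change was 0.69 (SE 0.0683, 95% interval 0.50 to 0.88), with an adjusted p of 0.0408 in limma. ME1 is known both as a lipogenic gene and as a target of the oxidative stress factor NRF2 (NFE2L2).

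ACACA (ENSG00000278540, chromosome 17, 37084992 to 37406836, minus strand) encodes acetyl-CoA carboxylase alpha, which makes malonyl-CoA and is the committed step of the pathway. It was at 19.0 and 18.9 FPKM in the ZSCAN18 libraries, against 12.9 and 13.5 FPKM in the empty vector libraries. The ZSCAN18 libraries were nearly equal and clearly above the others. The log2 fold change was 0.49 (SE 0.0548, 95% interval 0.33 to 0.64), and the adjusted p in limma, 0.0499, lay just inside the threshold. With a pseudocount of 0.1 it was 0.0507, and after median-of-ratios scaling it was 0.0505. In the authors' deposited table ACACA had a q-value of 0.133 and ACLY one of 0.120.

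FASN (ENSG00000169710, chromosome 17, 82078338 to 82098294, minus strand) encodes fatty acid synthase, the multidomain enzyme that assembles palmitate. It was at 95.2 and 97.9 FPKM in the ZSCAN18 libraries, against 57.7 and 62.9 FPKM in the empty vector libraries. Again the groups were apart by much more than their inner spread. The log2 fold change was 0.67 (SE 0.0615, 95% interval 0.50 to 0.84; adjusted p in limma 0.0390). FASN exceeded ACACA by 5.02 and 5.18 times in the ZSCAN18 libraries and by 4.46 and 4.65 times in the empty vector libraries.

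ELOVL6 (ENSG00000170522, chromosome 4, 110045846 to 110198653, minus strand) elongates palmitate to stearate, the substrate of SCD. It was at 14.9 and 15.0 FPKM in the ZSCAN18 libraries, against 13.8 and 13.2 FPKM in the empty vector libraries. The libraries did not overlap, but the gap was small. The log2 fold change of 0.14 (SE 0.0550) had a 95% interval from -0.01 to 0.29 and an adjusted p of 0.209 in limma. That interval lies below those of ACACA, ACLY, FASN and ME1, although the difference between genes was not tested.

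SCD (ENSG00000099194, chromosome 10, 100347233 to 100364826, plus strand) encodes stearoyl-CoA desaturase, which makes oleate and palmitoleate. It was at 446 and 426 FPKM in the ZSCAN18 libraries, against 132 and 131 FPKM in the empty vector libraries. The mean of 436 ± 14.1 FPKM with ZSCAN18 stood 305 FPKM above the 131 ± 0.831 FPKM of the empty vector (SD, n = 2 each). The log2 fold change was 1.73 (SE 0.0455, 95% interval 1.60 to 1.85), ranked 18 of 11822, with an adjusted p of 0.0159 in limma. SCDP1, a processed pseudogene of SCD, was listed at a mean of 0.415 FPKM with ZSCAN18 and 0.0376 FPKM with the empty vector. In the authors' deposited table only SCD and ACSS2 of the 10 genes were marked significant, with q-values of 8.76e-21 and 1.93e-09; that mark was given to no gene with an absolute log2 fold change under 1. FASN and ME1, with q-values of 0.00963 and 0.0129 in the authors' deposited table, lay below it.

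**Figure D2:**
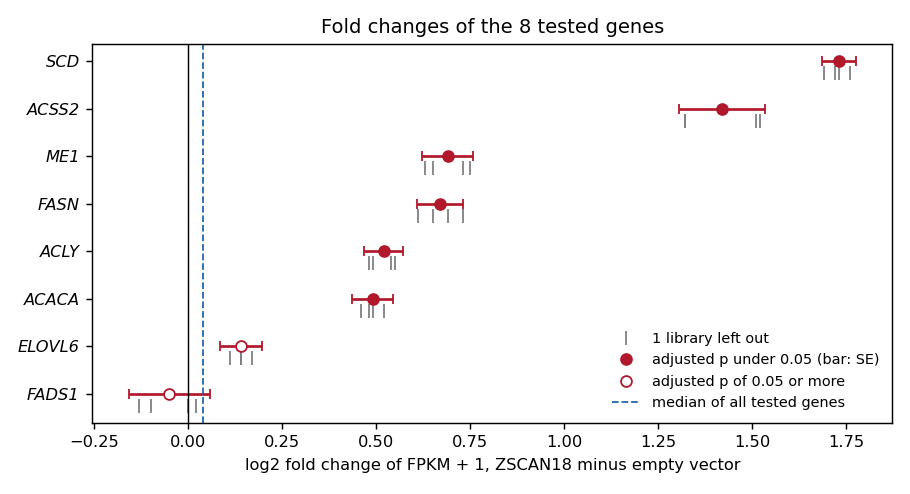
Log2 fold changes of FPKM + 1 (ZSCAN18 minus empty vector) of the 8 tested genes with their SE; filled points have an adjusted p under 0.05, grey ticks are the values with 1 library left out and the dashed line is the median of all tested genes. SCD and ACSS2 stand at 1.73 and 1.42, ME1, FASN, ACLY and ACACA between 0.49 and 0.69, and ELOVL6 and FADS1 near 0.

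The remaining genes belong to the polyunsaturated branch, which lengthens and desaturates essential fatty acids. In gastric cancer, ELOVL5 and FADS1 are known to be low in lines of intestinal type and higher in lines of mesenchymal type. FADS1 (ENSG00000149485, chromosome 11, 61799627 to 61829318, minus strand), the delta-5 desaturase, was at 0.922 and 1.13 FPKM in the ZSCAN18 libraries, against 1.03 and 1.17 FPKM in the empty vector libraries. The groups overlapped. Its log2 fold change was -0.05 (SE 0.108, 95% interval -0.35 to 0.25, adjusted p in limma 0.790) and turned to 0.02 without the first ZSCAN18 library. FADS2 (ENSG00000134824, chromosome 11, 61792980 to 61867354, plus strand), the delta-6 desaturase, was at 0.326 and 0.307 FPKM with ZSCAN18, against 0.154 and 0.270 FPKM with the empty vector. ELOVL5 (ENSG00000012660, chromosome 6, 53267398 to 53349179, minus strand), the elongase of polyunsaturated fatty acids, was at 0.210 and 0.166 FPKM with ZSCAN18, against 0.195 and 0.147 FPKM with the empty vector. Neither passed the filter on low values, and the ELOVL5 groups overlapped. At the estimated depth, an ELOVL5 level of 0.147 FPKM rests on about 3.62 fragments per kilobase of transcript, so a change of moderate size was not detectable for it. The spans of FADS1 and FADS2 overlap on opposite strands by 29692 bases, and FEN1, a flap endonuclease gene on the strand of FADS2, overlaps FADS2 by 4259 bases at a mean of 67.5 FPKM with ZSCAN18 and 78.7 FPKM with the empty vector. The share of FADS2 signal that comes from neighbours was not tested.

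Ordered by mean FPKM, the ZSCAN18 libraries gave SCD, ACLY, FASN, ME1, ACACA, ELOVL6, ACSS2, FADS1, FADS2 and ELOVL5, and the library ranges of neighbours did not overlap. With the empty vector the order differed at the top and in the middle. There ACLY, at a mean of 136 FPKM, came before SCD, at 131 FPKM. ELOVL6 came before ACACA, at 13.5 and 13.2 FPKM, and the ranges of this pair overlapped, as did those of FADS2 and ELOVL5. Levels per length thus spanned from 436 to 0.188 FPKM among the 10 genes with ZSCAN18 and from 136 to 0.171 FPKM with the empty vector.

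The 10 genes together held 835 and 804 FPKM in the ZSCAN18 libraries, against 380 and 393 FPKM in the empty vector libraries. This was 0.432 and 0.410% of all FPKM of nuclear genes with ZSCAN18, against 0.188 and 0.197% with the empty vector. SCD alone made up 53.4 and 53.0% of the sum with ZSCAN18, against 34.6 and 33.2% with the empty vector. ACLY, SCD and FASN together made up 88.6 and 88.9% of it with ZSCAN18, against 84.6 and 84.8% with the empty vector.

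Ratios of genes inside a library do not depend on how libraries were scaled. SCD over ELOVL6, the desaturase over the elongase that feeds it, was 29.9 and 28.4 in the ZSCAN18 libraries, against 9.56 and 9.86 in the empty vector libraries. SCD over FASN was 4.68 and 4.35 with ZSCAN18, against 2.28 and 2.08 with the empty vector. SCD was thus higher relative to FASN and to ELOVL6 in both ZSCAN18 libraries. FADS1, the other tested desaturase of the 10 genes, did not share this, and FADS1 over SCD was 0.00207 and 0.00266 with ZSCAN18, against 0.00782 and 0.00893 with the empty vector. ACACA over ACLY was 0.0956 and 0.0989 with ZSCAN18, against 0.0979 and 0.0968 with the empty vector, and ME1 over FASN was 0.475 and 0.425 with ZSCAN18, against 0.447 and 0.434 with the empty vector. These last ratios overlapped between the groups. No p is given for a ratio, because 2 against 2 libraries cannot reach the threshold in an exact test.

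**Figure D3:**
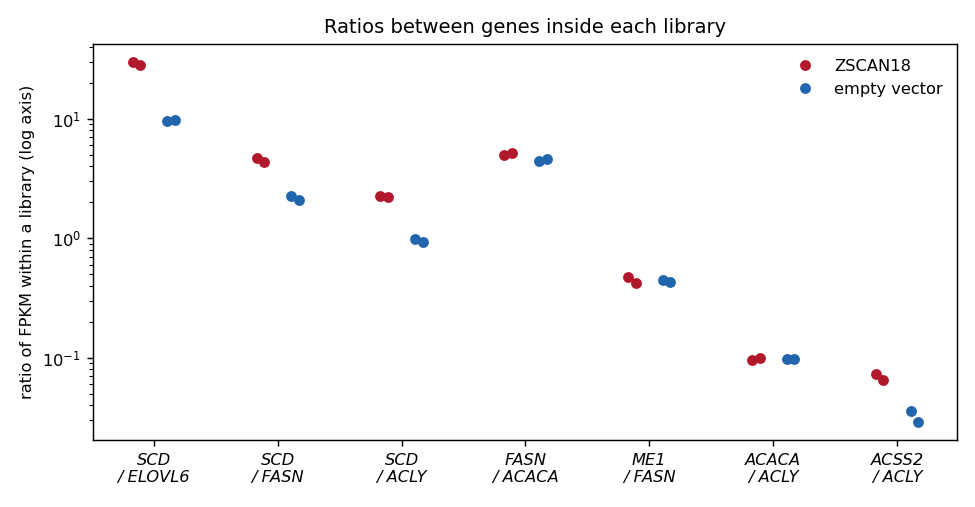
Ratio of FPKM between pairs of genes inside each library on a log axis, ZSCAN18 libraries in red on the left and empty vector libraries in blue on the right; each point is a library. The ratios of SCD to ELOVL6, FASN and ACLY are separated between the groups, while ACACA over ACLY and ME1 over FASN overlap.

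**Figure D4:**
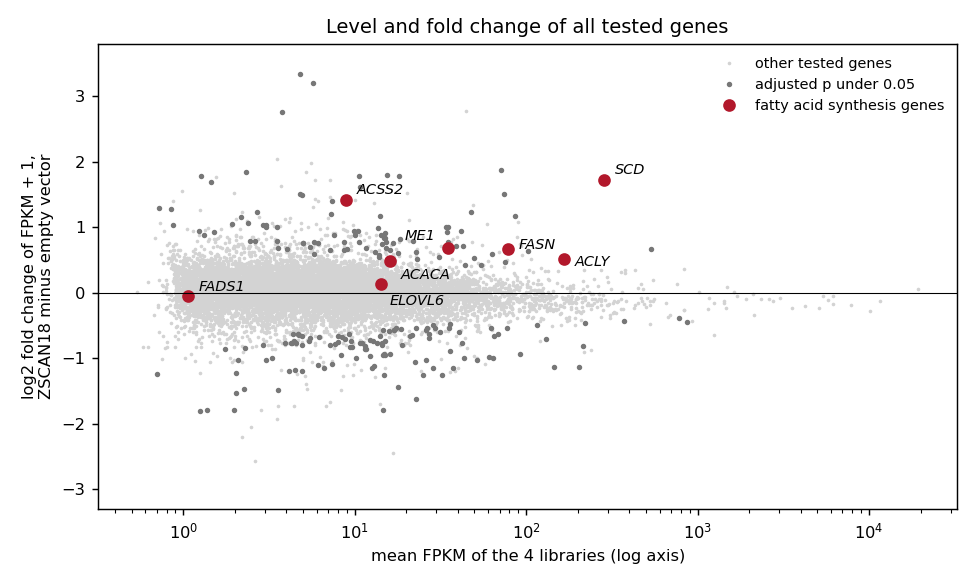
Log2 fold change of FPKM + 1 (ZSCAN18 minus empty vector) against the mean FPKM of the 4 libraries on a log axis, for all tested genes other than ZSCAN18, which lies above the plotted range at 6.67. The fatty acid synthesis genes in red run from FADS1 near 1 FPKM and near 0 to SCD at 1.73; dark grey points are other genes with an adjusted p under 0.05.

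A wider list of 57 other pathway genes was read in the same fit, 43 of which passed the filter. In limma 2 were called higher and 1 lower, against 0.795% and 0.973% of all tested genes, 21 of the 43 had a positive fold change and the median was -0.01. After rescaling without the genes of the mitochondrial genome 25 of the 43 were positive, with a median of 0.03. The 3 calls were all among the regulators; without any 1 library 0 of them passed, and without the intensity trend INSIG1 and NR1H3 did. INSIG1, which holds the sterol regulatory proteins in the endoplasmic reticulum, was at 17.6 and 16.0 FPKM in the ZSCAN18 libraries, against 5.22 and 4.36 FPKM in the empty vector libraries, and rose by a log2 of 1.62 (SE 0.104, adjusted p in limma 0.0307). SREBF2 encodes the sterol regulatory family member best known for cholesterol genes. Its level was 62.4 and 62.5 FPKM with ZSCAN18, against 45.9 and 47.1 FPKM with the empty vector. The gene rose by a log2 of 0.42 (SE 0.0451, adjusted p in limma 0.0454). NR1H3, the liver X receptor alpha, fell to 3.08 and 3.10 FPKM in the ZSCAN18 libraries, against 5.66 and 5.92 FPKM in the empty vector libraries (log2 -0.73, SE 0.0678, adjusted p in limma 0.0390). SREBF1, the family member best known for fatty acid genes, was at 11.3 and 11.0 FPKM with ZSCAN18, against 11.2 and 11.7 FPKM with the empty vector. NFE2L2, the oxidative stress factor named above, was at 18.6 and 18.4 FPKM with ZSCAN18, against 17.2 and 19.9 FPKM with the empty vector. The mRNA levels of SREBF1 and NFE2L2 thus overlapped between the groups, which says nothing of their protein or its processing. INSIG2, NR1H2 and MBTPS1 had log2 fold changes of -0.29, 0.35 and 0.32 and did not pass, and 11 of the 12 regulators were tested, with a median of -0.04, or between -0.09 and -0.01 with 1 library left out.

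In the other lists 0 genes were called in limma. Counts at an unadjusted p under 0.05 in these lists stand beside a share of 26.8% among all tested genes. The list of acetyl-CoA and NADPH supply had 0 of 7 tested genes with an unadjusted p under 0.05 in limma and a median log2 fold change of 0.06. IDH1, the cytosolic NADP-dependent isocitrate dehydrogenase, was at 24.6 and 29.4 FPKM with ZSCAN18, against 18.9 and 22.8 FPKM with the empty vector (log2 0.36, adjusted p in limma 0.198). AACS, which makes acetoacetyl-CoA from ketone bodies, had a log2 fold change of 0.16 and ME3, a mitochondrial malic enzyme, one of -0.15. In the list of control of synthesis 3 of 6 tested genes had an unadjusted p under 0.05 in limma, with a median of 0.07. Leaving out 1 ZSCAN18 library moved the median to 0.18 (the first left out) or 0.11 (the second left out). It was 0.05 without the first empty vector library and 0.03 with median-of-ratios scaling. PRKAB2, a regulatory subunit of AMP-activated protein kinase, which inhibits acetyl-CoA carboxylase, was at 7.26 and 7.12 FPKM with ZSCAN18, against 4.46 and 5.05 FPKM with the empty vector (log2 0.51, adjusted p in limma 0.0689). MID1IP1, which helps acetyl-CoA carboxylase to polymerise, had a log2 fold change of 0.21 and PRKAA2, a catalytic subunit of the same kinase, one of 0.22. ACACB, the mitochondrial carboxylase, stayed below 1 FPKM with means of 0.277 FPKM with ZSCAN18 and 0.190 FPKM with the empty vector, and THRSP was listed at the floor in all libraries.

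In the elongation cycle 5 of 7 tested genes had an unadjusted p under 0.05 in limma, with a median of 0.17. ELOVL1, the elongase of saturated very long chains, was at 29.7 and 30.0 FPKM with ZSCAN18, against 38.7 and 43.6 FPKM with the empty vector, with a log2 fold change of -0.45 (adjusted p in limma 0.0727). HSD17B12 and HACD3, which act after the condensing step, had log2 fold changes of 0.23 and 0.17. HACD2, a dehydratase gene of the same step as HACD3, had the largest fold change of the list, at 21.5 and 22.1 FPKM with ZSCAN18, against 17.5 and 11.9 FPKM with the empty vector (log2 0.56, adjusted p in limma 0.169). ELOVL7, an elongase of the same family as ELOVL1, was at 8.46 and 6.48 FPKM with ZSCAN18, against 5.33 and 5.48 FPKM with the empty vector (log2 0.39, adjusted p in limma 0.174). The tested elongases outside the 10 genes thus had fold changes of opposite sign, and neither passed. In the list of desaturation and electron donors 1 of 6 tested genes had an unadjusted p under 0.05 in limma, and the median was 0.01, or between -0.06 and 0.09 with 1 library left out. SCD5, the other human stearoyl-CoA desaturase, was at 5.63 and 6.04 FPKM with ZSCAN18, against 6.12 and 5.09 FPKM with the empty vector, so the groups overlapped. CYB5R1, of the cytochrome b5 reductase family, had a log2 fold change of 0.32 and FADS3, of the desaturase family, one of 0.23. Mitochondrial fatty acid synthesis, the separate route that supplies lipoic acid, had 5 of 6 genes with a negative fold change and a median of -0.23, or 4 of 6 and -0.19 after rescaling without the genes of the mitochondrial genome. The median was -0.37 without the second ZSCAN18 library and -0.16 without the first empty vector library. In that list 3 of 6 genes had an unadjusted p under 0.05 in limma, CBR4 at -0.35, HSD17B8 at -0.63 and MECR at -0.35, with adjusted p of 0.105, 0.125 and 0.163.

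**Figure D5:**
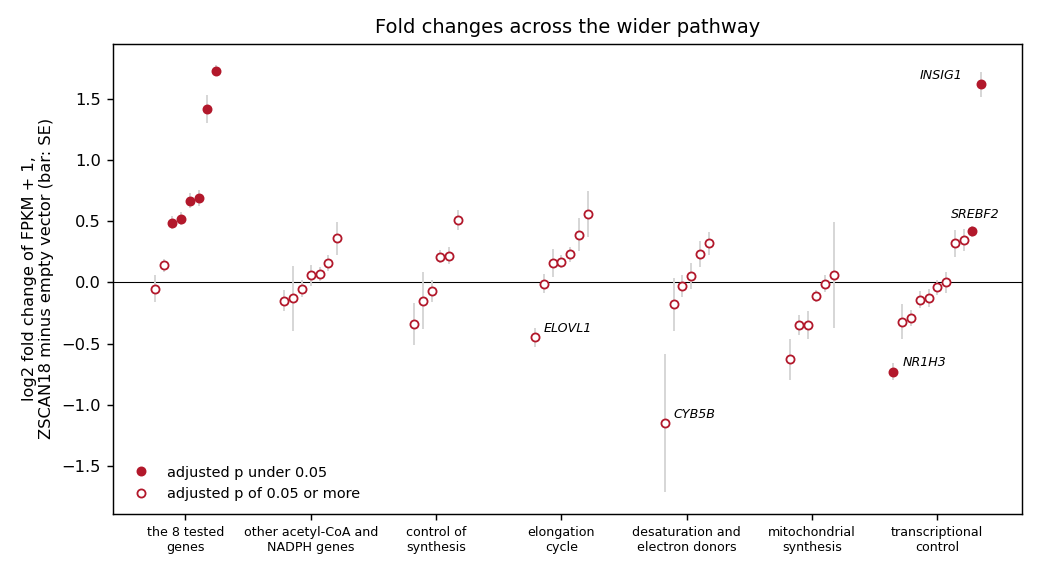
Log2 fold changes of FPKM + 1 (ZSCAN18 minus empty vector) with SE for the 8 tested genes and for the tested genes of 6 lists of the wider pathway; filled points have an adjusted p under 0.05. Outside the 8 genes only INSIG1 at 1.62, SREBF2 at 0.42 and NR1H3 at -0.73 are filled.

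The genes whose values ran most like those of 3 members were found by the Euclidean distance between centred log2(FPKM + 1) values over the 4 libraries. Nearest to SCD were ZBTB38, a zinc finger gene (distance 0.130), IDS, a lysosomal sulfatase gene (0.144), and ARPC5, an Arp2/3 subunit gene (0.157), at 4.20, 24.5 and 16.9 FPKM on average with ZSCAN18 and 0.445, 6.32 and 4.17 FPKM with the empty vector. Nearest to FASN were CLDN4, a tight junction claudin gene (0.0357), TSPYL2 (0.0490) and VAMP5 (0.0602), with log2 fold changes of 0.64, 0.70 and 0.69. Nearest to ACSS2 were a clone-named gene, AP003068 (0.179), MSMO1, a sterol synthesis gene (0.201), and INSIG1 (0.212), with log2 fold changes of 1.28, 1.51 and 1.62. They averaged 1.62, 110 and 16.8 FPKM with ZSCAN18 and 0.0739, 38.1 and 4.79 FPKM with the empty vector. AP003068 was thus near ACSS2 on the log2(FPKM + 1) scale but not in plain ratio. With 2 groups of 2 libraries the likeness of all these genes is mainly that of the fold change on this scale.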

How the data were processed

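Total RNA of NCI-N87 cells was extracted with Trizol and sequenced on Illumina libraries, per the labels' protocols. Per the submitters' processing notes, HISAT2 2.0.4, StringTie 1.3.4d, cutadapt 1.9, FastQC 0.10.1, DESeq2 and edgeR 3.2.5 were used, in roles that are not stated. The authors deposited, per the file headers, 1 table with the FPKM of 60612 genes in 4 libraries and their own linear fold ratio, its log2 value, a p-value and a q-value; their model is not stated. The deposited log2 value is that of the ratio of summed FPKM, and 0 genes differed from it by more than 0.001. An FPKM of 0.0001 is the floor. No source used here gives the genome build; of 58394 gene identifiers found in GENCODE 29 (GRCh38), 72.7% had the same start and end and 99.80% a start within 100 kb.

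Count models were not applied, since FPKM are no counts. Whole fragments could not be recovered: 19.3 to 20.4% of low values came within 0.02 of whole numbers of fragments at the estimated depths, and these depths assume that the most common value of single-exon genes is 1 fragment, within a preset window of 10000000 to 60000000 fragments. At an FPKM of 0.147 the counting error of a 1 kb transcript at that depth is 52.6%. The 11822 genes that reached an FPKM of 1 in 2 or more libraries entered 1 fit of log2(FPKM + 1) with limma 3.58.1 (R 4.3.3), using eBayes with an intensity trend; residual degrees of freedom were 2 and prior ones 2.01. Two-sided p-values were adjusted across these genes (Benjamini-Hochberg), with 0.05 as threshold; intervals are 95%. The fold change on this scale understates the change of low genes. The fit was also run on simulated libraries with known changes, where only the size of the recovered changes had to pass a limit. Their noise was drawn from spreads smoothed over genes, so this run does not show how reliable the calls are.

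The members, the lists and the rule for named genes were chosen with earlier results of these data known. The rule takes all 10 members, the called genes of each list with up to 3 more of the smallest p, and 3 like genes each for SCD, FASN and ACSS2; SREBF1, NFE2L2, HACD2, ELOVL7, SCD5, ACACB and THRSP were added after their values were seen. A comparison of the encoded proteins was not made. Alternatives covered the pseudocount, the filter, scaling, variance moderation, a replicate block and leaving out each library.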

Additional observations from a re-analysis of the deposited data

How the results depend on the processing

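Low levels limit what can be read of the polyunsaturated branch. ELOVL5 and FADS2 lay below 1 FPKM in all libraries. Without a filter on low FPKM their log2 fold changes were 0.02 and 0.12. Genes past the threshold numbered 209 in all, 6 among the members and 3 in the wider pathway. Without the filter these became 1, 0 and 0, with 30288 genes tested. Where only 1 gene passed in all, here or below, that gene was ZSCAN18 itself. Without the intensity trend the counts became 99 genes and 2 members (SCD, ACSS2). Without 1 library they ranged from 0 to 1 in all and were 0 among the members and 0 in the wider pathway, where the lone library of a group is assumed to vary like those of the other group. The log2 fold changes then ranged from 1.69 to 1.76 for SCD, 1.32 to 1.52 for ACSS2, 0.63 to 0.75 for ME1, 0.61 to 0.73 for FASN, 0.48 to 0.55 for ACLY, 0.46 to 0.52 for ACACA, 0.11 to 0.17 for ELOVL6 and -0.13 to 0.02 for FADS1. With the replicate block 1 gene in all, 0 members and 0 genes of the wider pathway passed in limma, with 6 members and 22.2% of all tested genes at an unadjusted p under 0.05; the numbers are not said to mark a shared culture, and deviations of same-numbered libraries correlated at 0.034 across genes. Across the other settings each of the 6 called members kept a positive fold change, with SCD between 1.68 and 1.77 and ACLY between 0.47 and 0.64. The cause of the changed counts was not tested beyond the number of genes and samples entered.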

Other observations

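Of 51 tested genes among the members and the wider pathway, 5 differed by more than 1.5 times between the libraries of 1 group. Members were 0 of these 5, which were picked after their values were seen. The share over all tested genes was not counted, so the 0 is not read as a trait of the members. CYB5B, the outer mitochondrial membrane form of cytochrome b5, was at 40.7 and 13.0 FPKM in the ZSCAN18 libraries, against 47.3 and 58.8 FPKM in the empty vector libraries. The second ZSCAN18 library stood far below the other 3, so the log2 fold change of -1.15 (SE 0.567, adjusted p in limma 0.277) rests mainly on it. OXSM, the condensing enzyme of mitochondrial fatty acid synthesis, was at 1.58 and 3.84 FPKM with ZSCAN18, against 3.45 and 1.57 FPKM with the empty vector, so both groups held a high and a low library. PRKAA1, a catalytic subunit of AMP-activated protein kinase, was at 7.82 and 12.7 FPKM with ZSCAN18, against 11.5 and 10.9 FPKM with the empty vector. CYB5A was at 1.55 and 2.66 FPKM with ZSCAN18, against 2.20 and 2.77 FPKM with the empty vector, and HSD17B8 at 0.913 and 1.45 FPKM with ZSCAN18, against 2.59 and 2.12 FPKM with the empty vector. Among the 8 tested members the largest such ratio was 1.23, for FADS1.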
